A study of Mus musculus with 15 samples.

Results

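Neutrophils are short-lived white blood cells that leave the bone marrow with their granules already filled, so transcripts of different granule classes mark different stages of their maturation. The genes described here are 10 that are widely used to recognise mouse neutrophils, S100a8, S100a9, Camp, Ngp, Lcn2, Ly6g, Csf3r, Retnlg, Stfa1 and Chil3. Several of them are also made outside neutrophils: epithelial cells make Lcn2 and keratinocytes make calprotectin and stefin A, whereas some macrophages make Chil3. All non-control probes carrying one of these gene names were taken, which gave 11 probes of 10 genes among 37074 gene names and 56605 distinct probes, with 1 probe for each gene except Lcn2, which had 2.

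The arrays measured total RNA of spontaneous mammary tumours of 20-week-old mice, 7 on the Wsh background and 8 on the B6 (C57BL/6) background. All mice of both groups carried MMTV-PyMT, in which a mouse mammary tumour virus promoter drives the polyoma middle T antigen in mammary epithelium. Wsh mice carry the sash allele of Kit, an inversion beside the gene that leaves adults without mast cells, and the series asks how mast cells affect the tumours. The groups thus differ in the Kit allele, the inverted segment, mast cells and any other background DNA, and these cannot be told apart. Whether tumours shared a mouse is not in the labels, and p-values therefore cover only the spread between the samples given. As a check of the labels, Kit averaged 0.59 ± 0.52 in Wsh and 3.24 ± 0.62 in B6 tumours on a log2 scale (SD, n = 7 and n = 8; limma adjusted p = 0.000166), and the mast cell proteases Mcpt4 and Cma1 were also lower in Wsh (limma adjusted p = 0.000458 and 0.00545).

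Each level is the log2 signal of a probe after subtraction of its own array's 75th percentile, so 1 unit is a doubling and 0 is that percentile; levels of different probes are not compared with each other. Of the 11 probes, 10 cleared the background filter (7 or more of the 15 arrays) and entered the fit of 34349 probes, and the Ngp probe was not. The percentage of probes well above background was 63.3 ± 4.40 on Wsh arrays and 62.3 ± 6.41 on B6 arrays (SD, n = 7 and n = 8), and log2 levels of any pair of arrays correlated at 0.926 to 0.988. Skeletal muscle transcripts were high on 5 arrays, Wsh 1, 3, 4 and 5 and B6 4, where the mean of that gene list stood 2.64 to 5.85 above its mean over the 15 arrays; on the other arrays it was -2.35 to -1.43. Differences of several members are also given without these arrays, whereas correlations and the other gene lists are given only with them.

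Of the probe sequences, 4 are given here. Which part of its transcript each probe reads was not looked up. Positions are those of the array files, in build mm9. The S100a8 probe lies at chr3:90473778-90473837 on the plus strand. The Ngp probe (chr9:110324266-110324814, plus strand) and the second Lcn2 probe (chr2:32241037-32241281, minus strand) span 549 and 245 bases of genome with 60 bases of sequence, so each joins bases from separate stretches of the genome. The Ly6g probe lies at chr15:74989023-74989082 on the plus strand, and capitals in it mark a run of 28 bases that another probe of the array also holds.
S100a8: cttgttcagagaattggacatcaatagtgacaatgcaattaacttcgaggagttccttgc
Ngp: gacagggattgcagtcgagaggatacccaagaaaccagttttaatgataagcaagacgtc
Lcn2, probe 2: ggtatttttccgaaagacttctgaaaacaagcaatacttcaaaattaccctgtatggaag
Ly6g: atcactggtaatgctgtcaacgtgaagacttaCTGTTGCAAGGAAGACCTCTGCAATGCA

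None of the 10 tested neutrophil probes passed the test between Wsh and B6 tumours (limma, Benjamini-Hochberg adjusted p under 0.05), where 114 of all 34349 probes, 0.332%, did (0.119% higher and 0.213% lower). None passed at an unadjusted p under 0.05 either, against 11.1% of all probes, and the groups overlapped for all 11 probes, as they did for all but 0.399% of the probes tested. The log2 difference of Wsh minus B6 was above 0 for 7 of the 10 tested probes, against 51.6% of all probes, with a median of 0.45. That median rests on single arrays: it was 0.17 without Wsh 1, 0.19 without B6 3 and 0.77 without Wsh 4, ran from 0.17 to 0.77 over the fits that left out 1 array, and was 0.014 with array weights. Without the 5 muscle arrays it was 1.52, with 9 of 10 probes above 0 and 4 at an unadjusted p under 0.05, against 8.95% of all probes in that fit, and none passed after adjustment. These 5 arrays include Wsh 3, 4 and 5, the 3 Wsh tumours with the lowest S100a8 and S100a9. Over all 15 arrays, the difference of the 10 tested probes ran from -0.62 for Ly6g to 1.63 for S100a9. Several members varied widely over tumours. The SD over the 15 arrays of S100a8, S100a9, Camp, Retnlg, Stfa1 and Chil3 stood at or above the 95.2 percentile of all tested probes, whereas that of Csf3r stood at the 20.1 percentile and those of the 2 Lcn2 probes at 44.0 and 66.1.

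**Figure D1:**
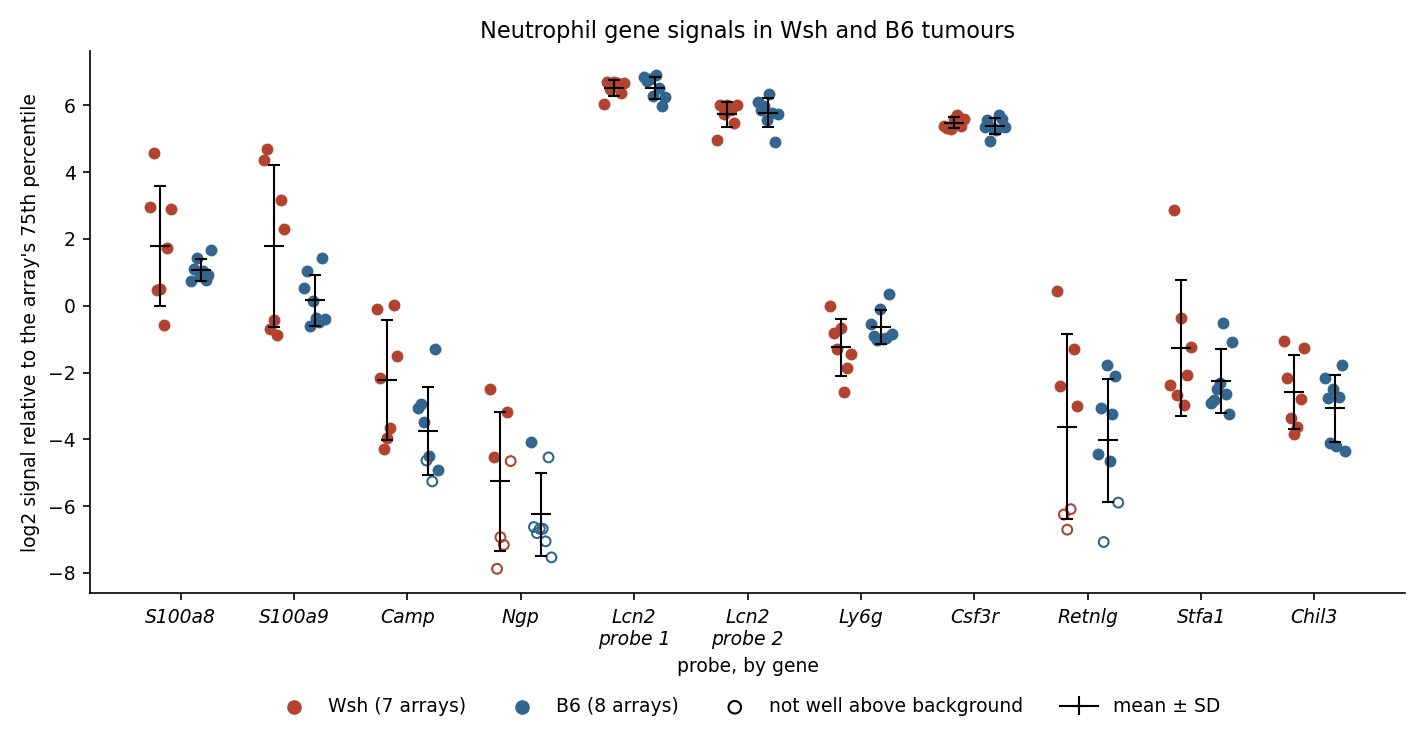
Log2 signal of each neutrophil probe relative to the array's 75th percentile, by tumour, with Wsh (red, 7 arrays) left of B6 (blue, 8 arrays); open circles are arrays on which the probe was not well above background, and bars are mean ± SD. S100a8 spans -0.59 to 4.57 in Wsh tumours, against 0.73 to 1.66 in B6 tumours, and the groups overlap for every probe.

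S100a8 and S100a9 encode the subunits of calprotectin, a calcium- and zinc-binding protein that fills the neutrophil cytosol. S100a8 read 2.96, 4.57, 0.47, 0.49, -0.59, 1.73 and 2.89 in Wsh tumours 1 to 7, against a lowest of 0.73, a median of 0.98 and a highest of 1.66 in the 8 B6 tumours. In 4 Wsh tumours it was above every B6 tumour, in the other 3 below every B6 tumour, and none lay inside the B6 range. Of all probes tested, 0.483% had every Wsh array outside the B6 range, and 8 probes, 0.0233%, had at least 3 Wsh arrays on each side; that description was chosen after the values were seen. Means were 1.79 ± 1.80 in Wsh and 1.07 ± 0.32 in B6 (SD, n = 7 and n = 8), a difference of 0.72 (SE 0.59, limma adjusted p = 0.703). It was 1.08 on slide 1 and 0.24 on slide 2, 0.25 without Wsh 2, 1.11 without Wsh 5 and 0.25 with array weights. The Wsh SD was 5.61 times the B6 SD, a ratio at the 99.9 percentile of tested probes, whose median ratio was 0.887. The highest Wsh tumour was 35.7-fold above the lowest, against 1.91-fold in B6.

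S100a9 read 4.36, 4.70, -0.70, -0.44, -0.88, 3.18 and 2.29 in Wsh tumours 1 to 7, against 0.53, 1.05, -0.61, 0.13, -0.37, -0.47, 1.44 and -0.41 in B6 tumours 1 to 8. Wsh 1, 2, 6 and 7 stood above every B6 tumour, as at least 4 Wsh arrays did for 3.85% of all probes, and these are the same 4 tumours as for S100a8. Wsh 3 and 5 stood below every B6 tumour and Wsh 4 lay inside their range. The means were 1.79 ± 2.43 in Wsh and 0.16 ± 0.77 in B6 (SD, n = 7 and n = 8), and the difference of 1.63 had an SE of 0.83, a 95% interval from -0.14 to 3.40 and a limma adjusted p of 0.490. Wsh minus B6 was 1.71 on slide 1 and 1.48 on slide 2, the 2 slides that each held tumours of both groups, and 0.67 with array weights. Without the 5 arrays with muscle transcripts, a comparison chosen after the data were seen, it was 3.22 (SE 0.57, limma adjusted p = 0.105), and S100a8 differed by 1.97 (limma adjusted p = 0.242); the part of muscle tissue in these values was not tested.

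Camp, Ngp and Lcn2 encode granule proteins. Camp, the precursor of the antimicrobial peptide cathelicidin, read -0.10, -2.15, -4.30, -3.95, -3.67, 0.01 and -1.50 in Wsh tumours 1 to 7, against a lowest of -5.26, a median of -3.99 and a highest of -1.31 in B6. Wsh 1 and Wsh 6 were above every B6 tumour and the other 5 lay inside the B6 range. It was well above background on 7 of 7 Wsh arrays and 6 of 8 B6 arrays. The difference was 1.53 (SE 0.74, limma adjusted p = 0.463), with 0.91 on slide 1, 2.28 on slide 2 and 2.43 without the muscle arrays.

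Ngp, a cathelicidin-related protein of specific granules made by immature neutrophils, was well above background on 3 of 7 Wsh arrays and 1 of 8 B6 arrays. Its highest readings were -2.48 in Wsh 1 and -3.17 in Wsh 6, against -4.07 in B6 1 and -4.54 in B6 7. The other readings ran from -7.88 to -4.54 in Wsh and from -7.53 to -6.63 in B6. In the fit without a filter on dim probes the difference was 0.99 (SE 0.81, limma adjusted p = 0.852 over 56605 probes).

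Lcn2 encodes lipocalin-2, a protein that binds bacterial iron carriers and that inflamed epithelium also secretes. The first Lcn2 probe (chr2:32240199-32240258, minus strand, mm9) had a lowest of 6.04, a median of 6.67 and a highest of 6.71 in Wsh tumours, against 5.97, 6.61 and 6.90 in B6. On this probe the groups covered nearly the same narrow range, 1.59-fold in Wsh and 1.90-fold in B6. The second probe ranged 2.06-fold in Wsh and 2.68-fold in B6. The differences were -0.01 (SE 0.15, 95% interval -0.33 to 0.31) for the first probe and -0.05 (SE 0.20, interval -0.48 to 0.38) for the second, with limma adjusted p of 0.990 and 0.951. Both probes followed each other over the 15 arrays at r = 0.946 and rho = 0.918 (permutation p = 1e-05 and 2e-05; the first is the smallest that 100000 resamples can give).

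Ly6g encodes the surface protein against which most mouse neutrophil antibodies are raised, and Csf3r encodes the receptor for granulocyte colony-stimulating factor. Ly6g read -0.02, -0.82, -1.30, -0.67, -2.60, -1.87 and -1.45 in Wsh tumours 1 to 7, against a lowest of -1.03, a median of -0.88 and a highest of 0.35 in B6. Here 4 Wsh tumours, 3, 5, 6 and 7, were below every B6 tumour. The share of all probes with as many Wsh arrays below was not counted. The difference was -0.62 (SE 0.33, limma adjusted p = 0.508), with -0.06 on slide 1, -1.36 on slide 2 and -0.39 without Wsh 5. Wsh 6 and Wsh 7 were thus above all B6 tumours for S100a9 and below all of them for Ly6g. The probe that holds the 28 bases marked above, which the files name only by a transcript identifier, gave levels that followed those of the Ly6g probe at r = 0.938 and rho = 0.936 (permutation p = 1e-05 and 2e-05, n = 15; r = 0.897 without the 2 farthest arrays). Whether the Ly6g probe also reads other transcripts of the family was not tested.

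Csf3r had a lowest of 5.30, a median of 5.40 and a highest of 5.72 in Wsh tumours, against 4.93, 5.35 and 5.70 in B6, so the groups lay on top of each other. The difference was 0.09 (SE 0.11, 95% interval -0.14 to 0.33, limma adjusted p = 0.812). It is the only one of the tested members whose sign turned with another scaling: on the median of each array it was -0.004. The Csf3r probe lies at chr4:125721478-125721537 on the plus strand (mm9), and its last 30 bases are shown because they are shared. Capitals mark the 18 bases that 2 other probes of the array hold too, which are letters of the B1 family of mouse repeats.
Csf3r, last 30 bases: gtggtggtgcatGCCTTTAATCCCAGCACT
The probe that shares all of these 30 bases followed Csf3r at r = 0.973 and rho = 0.904, and one named Gm1305 that shares 20 followed it at r = 0.900 and rho = 0.832 (permutation p of at most 0.00025, n = 15). How much of the Csf3r signal comes from the gene was not tested, and its level is given as that of the probe.

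Retnlg, Stfa1 and Chil3 encode a resistin-like secreted protein of neutrophils, a cytosolic inhibitor of cysteine proteases and a chitinase-like lectin. Retnlg read 0.44, -2.42, -6.25, -6.71, -6.09, -1.30 and -3.01 in Wsh tumours 1 to 7, against a lowest of -7.08, a median of -3.84 and a highest of -1.79 in B6. The lowest readings, those of Wsh 3, 4 and 5 and of B6 3 and 8, were not well above background, so no fold range is given. Only Wsh 1 and Wsh 6 exceeded all B6 tumours, and the probe was well above background on 4 of 7 Wsh and 6 of 8 B6 arrays. The difference was 0.42 (SE 1.10, limma adjusted p = 0.928). It was -0.26 without Wsh 1, -0.02 without B6 3, 0.03 without Wsh 6, -0.98 with array weights and 2.11 without the 5 muscle arrays, so its sign was not settled.

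Stfa1 read 2.88 in Wsh 2 and -0.36 in Wsh 4, both above every B6 tumour, and -2.97 to -1.23 in the other 5 Wsh tumours, against a lowest of -3.25, a median of -2.56 and a highest of -0.53 in B6. The difference was 0.99 (SE 0.74, limma adjusted p = 0.662), and it was 0.31 without Wsh 2 and 2.10 without the muscle arrays. It was 1.997 on slide 1, which held Wsh 2, and -0.22 on slide 2. In Wsh 2 the mean of the keratinocyte list was 2.39 above its mean over all arrays, against -1.05 to 0.50 on the other 14 arrays. Stfa1 correlated with that list at r = 0.784 (permutation p adjusted over 45 relations = 0.064), at rho = 0.246 and, without Wsh 2 and Wsh 5, at r = 0.151, so the relation rests on those arrays. The part of keratinocytes in the Stfa1 signal was not tested.

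Chil3, also called Ym1, read -1.04, -2.16, -3.36, -3.83, -3.62, -2.79 and -1.28 in Wsh tumours 1 to 7, against a lowest of -4.36, a median of -2.75 and a highest of -1.79 in B6. Wsh 1 and Wsh 7 were above every B6 tumour and no Wsh tumour was below the B6 range. The difference was 0.49 (SE 0.51, limma adjusted p = 0.774). It was 0.28 on slide 1 and 0.71 on slide 2, 0.23 without Wsh 1, 0.27 without Wsh 7, 0.31 without B6 8, 0.01 with array weights and 1.08 without the muscle arrays.

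Across tumours, S100a9, Camp, Retnlg and Chil3 moved together, and no pair of Lcn2, Csf3r, Ly6g or Stfa1 with any of them passed the test. Over the 15 arrays, 36 pairs of the 9 tested genes were compared, with permutation p adjusted over the 36. Pearson's r passed in 7 pairs, and in 4 of them Spearman's rho passed too. S100a9 and Camp had r = 0.83 and rho = 0.73 (adjusted p = 0.0042 and 0.029), with r = 0.84 within Wsh, 0.83 within B6 and 0.90 without Wsh 1 and Wsh 2. S100a9 and Retnlg had r = 0.78 and rho = 0.83 (adjusted p = 0.0042 and 0.011), with r = 0.92 within Wsh, 0.64 within B6 and 0.76 without Wsh 1 and Wsh 2. These pairs thus held within each group in sign, as did the next.

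Retnlg and Chil3 had r = 0.80 and rho = 0.73 (adjusted p = 0.0045 and 0.029), with r = 0.83 within Wsh, 0.79 within B6 and 0.70 without Wsh 1 and B6 3. For S100a9 and Chil3, r was 0.73 (adjusted p = 0.018) and rho 0.67 (adjusted p = 0.057), for Camp and Chil3 r was 0.68 (adjusted p = 0.037) and rho 0.58, and for Camp and Retnlg r was 0.65 (adjusted p = 0.047) and rho 0.55. The last of these was r = 0.40 without Wsh 1 and Wsh 6 and 0.23 within B6, and no longer passed. Within slides, r of these 6 pairs was 0.66 to 0.92 on slide 1 and 0.65 to 0.93 on slide 2.

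The calprotectin subunits S100a8 and S100a9 had the highest r of all pairs, 0.84, with rho = 0.77 (adjusted p = 0.0042 and 0.020). Their r was 0.63 without Wsh 1 and Wsh 2, 0.92 on slide 1 and 0.66 on slide 2. Within the 7 Wsh tumours r was 0.92 (exact permutation p = 0.0083), and within the 8 B6 tumours it was -0.38 (exact permutation p = 0.35). S100a8 in B6 was also opposite in sign to Retnlg (r = -0.69) and Chil3 (r = -0.78), where Wsh had 0.73 and 0.79. These differences between the groups were not tested. Lcn2 was negative with S100a9 in both groups, at -0.43 within Wsh and -0.36 within B6, and with Retnlg had r = -0.55 over all arrays, which did not pass (adjusted p = 0.131).

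**Figure D2:**
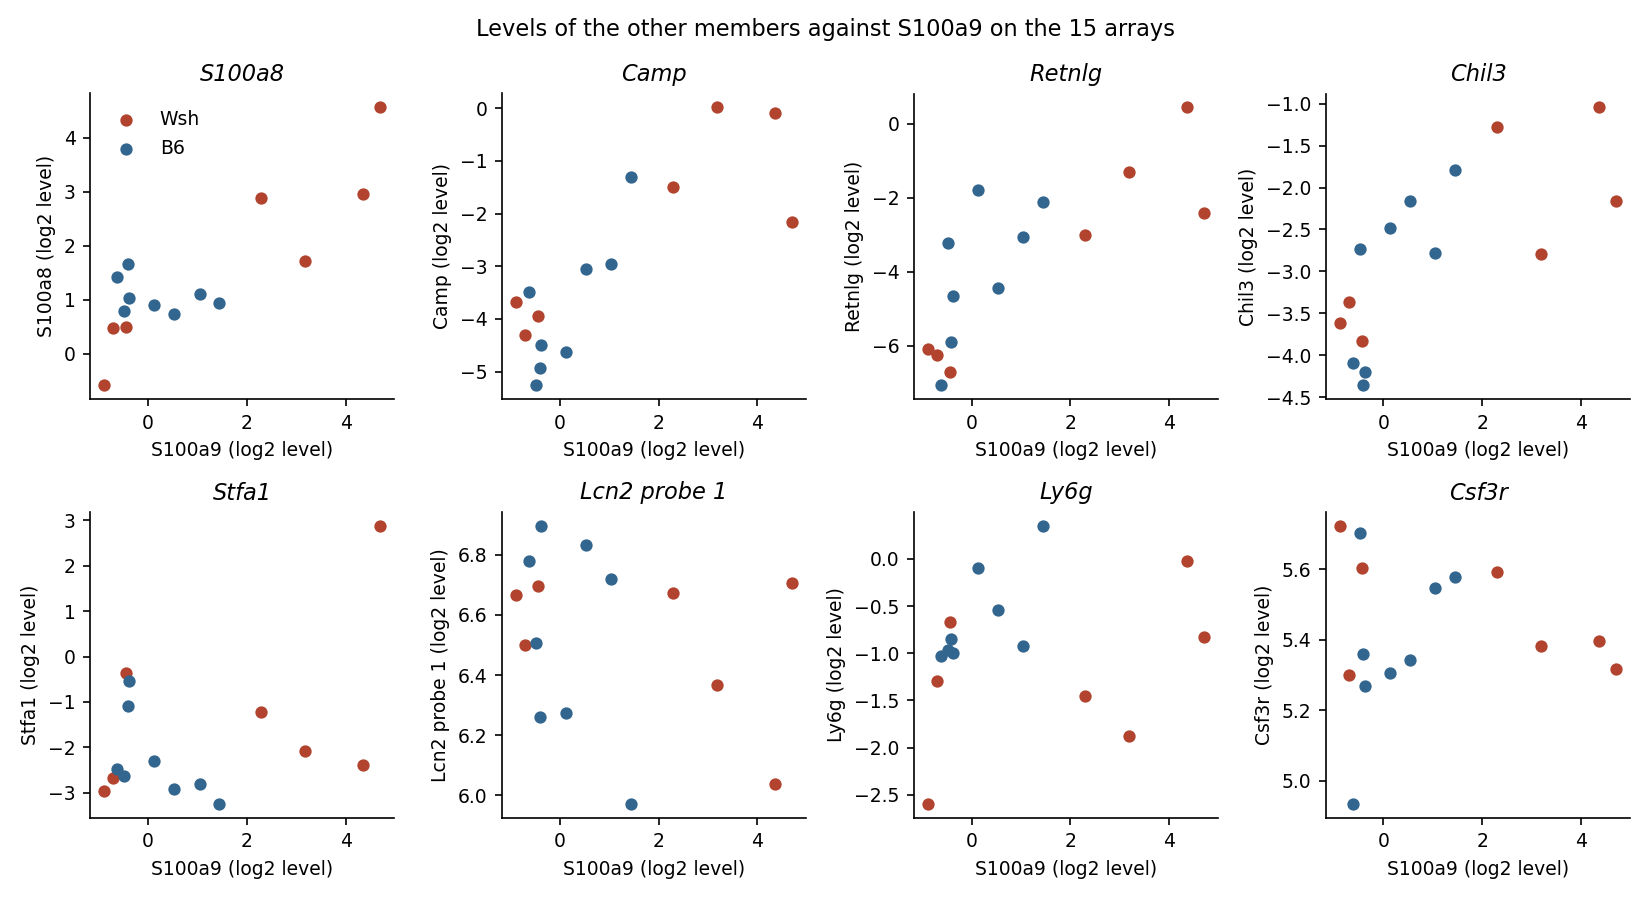
Log2 level of 8 members (vertical axes) against that of S100a9 (horizontal axes), with a point for each of the 7 Wsh (red) and 8 B6 (blue) tumours. Camp, Retnlg and Chil3 climb with S100a9 in both groups, S100a8 against S100a9 has r = 0.92 in Wsh and -0.38 in B6, and a single Wsh tumour at 2.88 stands apart for Stfa1.

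**Figure D3:**
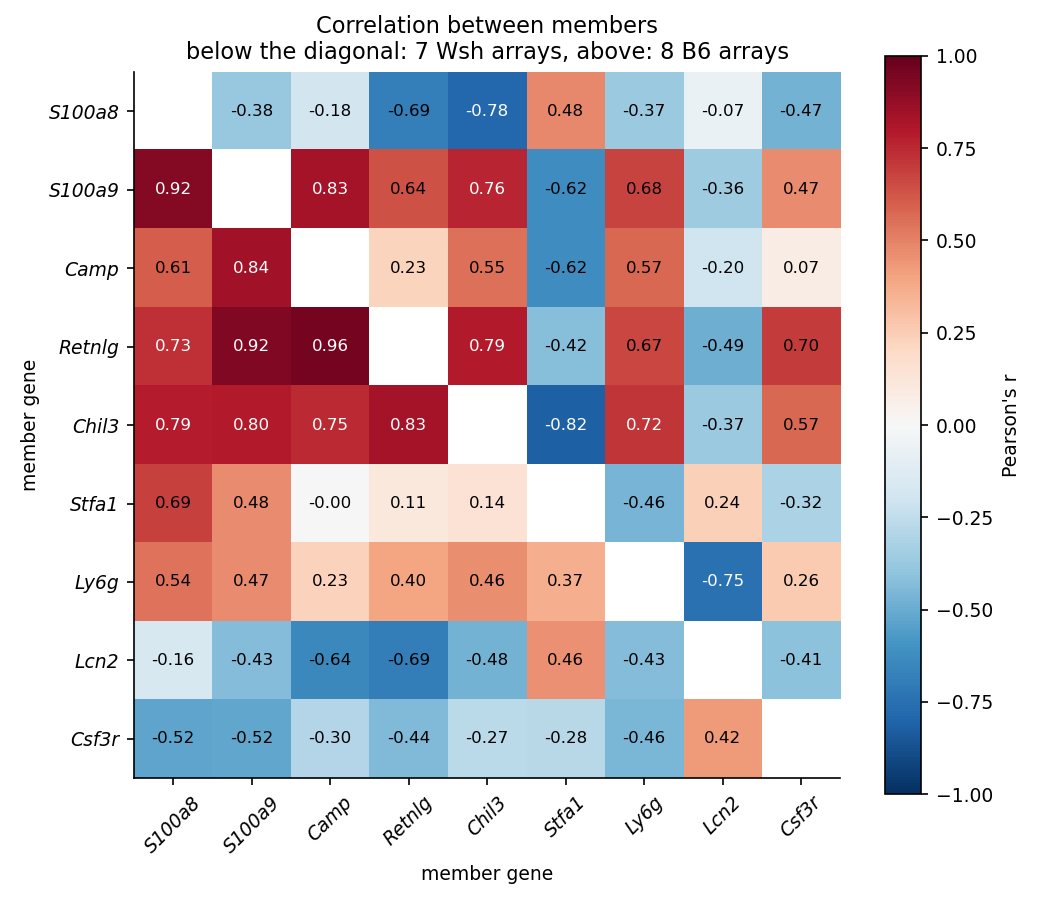
Pearson's r between members over the 7 Wsh tumours (below the diagonal) and the 8 B6 tumours (above it), from blue at -1 to red at 1. S100a9, Camp, Retnlg and Chil3 are positive with each other on both sides of the diagonal, and S100a8 with S100a9 is 0.92 in Wsh and -0.38 in B6.

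The promoters of S100a9, Camp, Retnlg and Chil3, which moved together, are printed, and so is that of Ngp, which was in none of the pairs tested. The S100a8 promoter is left out, although S100a8 passed with S100a9. Each promoter printed is the 250 bases before the start, read 5′ to 3′ in the direction of the gene, from RefSeq on build GRCm38.p6. Capitals mark a C/EBP motif (TTGCNNAA), a PU.1 motif (GAGGAAG) or an NF-kB motif (GGGA and CC with 4 free bases between them) on either strand; no motif overlaps another in the stretches printed. C/EBP and PU.1 proteins are the main transcription factors of granulocyte development.
S100a9 (chr3:90695722-90695971, minus strand): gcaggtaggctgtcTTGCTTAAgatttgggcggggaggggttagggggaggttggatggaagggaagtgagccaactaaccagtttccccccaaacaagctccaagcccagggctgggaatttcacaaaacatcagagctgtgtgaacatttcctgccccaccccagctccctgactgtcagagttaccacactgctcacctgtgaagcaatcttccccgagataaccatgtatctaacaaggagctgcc
Retnlg (chr16:48872358-48872607, plus strand): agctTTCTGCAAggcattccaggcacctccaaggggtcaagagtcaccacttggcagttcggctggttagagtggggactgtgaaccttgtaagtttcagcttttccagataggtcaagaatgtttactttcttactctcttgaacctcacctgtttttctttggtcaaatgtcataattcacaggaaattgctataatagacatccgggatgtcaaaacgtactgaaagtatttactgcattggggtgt
Camp (chr9:109849457-109849706, minus strand): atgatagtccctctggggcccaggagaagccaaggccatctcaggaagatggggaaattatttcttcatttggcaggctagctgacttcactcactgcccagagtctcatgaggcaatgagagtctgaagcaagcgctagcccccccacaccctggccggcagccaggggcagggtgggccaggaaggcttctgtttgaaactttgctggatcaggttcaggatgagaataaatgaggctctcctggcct
Chil3 (chr3:106167565-106167814, minus strand): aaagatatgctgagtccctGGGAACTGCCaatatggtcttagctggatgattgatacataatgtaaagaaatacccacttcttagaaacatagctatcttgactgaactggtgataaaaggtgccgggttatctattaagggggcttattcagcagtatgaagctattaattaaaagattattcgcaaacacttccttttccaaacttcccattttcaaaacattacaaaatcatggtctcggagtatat
Ngp (chr9:110419558-110419807, plus strand): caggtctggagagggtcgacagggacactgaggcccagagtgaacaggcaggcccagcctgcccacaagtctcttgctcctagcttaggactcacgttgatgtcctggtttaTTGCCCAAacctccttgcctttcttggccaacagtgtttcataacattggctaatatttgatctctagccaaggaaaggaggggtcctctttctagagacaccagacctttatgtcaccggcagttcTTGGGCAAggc
The S100a9 and Retnlg promoters held a C/EBP motif 236 and 246 bases before the start, and that of Ngp held 2, at 138 and 11 bases. Chil3 held an NF-kB motif at 231 bases before the start, and Camp held one only 35 bases after it, outside the stretch printed. In the window from 250 before to 50 after the start, the C/EBP motif was in 6 of the 10 members and in 10.8% of 27025 promoters. The PU.1 motif was in 5 of 10 members against 13.5%, and the NF-kB motif in 5 of 10 against 20.5%. Lcn2, Ly6g and Stfa1, whose pairs with S100a9 did not pass, also held the C/EBP motif, at 216, 232 and 109 bases before the start. None of the 5 promoters printed held the PU.1 motif, which was in those of S100a8, Lcn2, Ly6g, Csf3r and Stfa1. S100a8 held no C/EBP motif. S100a9, Camp, Retnlg and Chil3 had no motif in common. A match is a match of letters and was not tested against binding.

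Transcripts of T and NK cells varied along with S100a9, Camp, Retnlg and Chil3. The mean of the T and NK cell list, which ran from -0.78 to 1.15 in Wsh and from -1.41 to 0.61 in B6, correlated with Chil3 at r = 0.83 (rho = 0.78), with Camp at r = 0.81 (rho = 0.80), with S100a9 at r = 0.79 (rho = 0.84) and with Retnlg at r = 0.78 (rho = 0.81). Permutation p adjusted over 45 relations was 0.005 to 0.010 for each r and rho, and r was 0.71 to 0.78 without Wsh 1 and B6 8. Within groups these r were 0.75 to 0.93 in Wsh and 0.70 to 0.89 in B6. The macrophage and monocyte list correlated with Chil3 at r = 0.66 (adjusted p = 0.043), with rho = 0.59 (adjusted p = 0.135) and r = 0.49 without B6 3 and B6 8. Its r with Retnlg, S100a9 and Camp was 0.64, 0.40 and 0.23, and none of these passed (permutation adjusted p = 0.064, 0.31 and 0.58). Lcn2 instead correlated with the luminal and basal epithelium list, at r = 0.71 (adjusted p = 0.023), with rho = 0.61 (adjusted p = 0.129).

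Arrays fell into 2 sets by the mean of the B and plasma cell list. It was 0.75 to 3.29 on 8 arrays (Wsh 1, 2, 6 and 7 and B6 1, 2, 4 and 7) and -2.53 to -1.29 on 7. No pooled correlation with that mean is therefore given. The T and NK cell mean sorted the same arrays, at -0.05 to 1.15 on the 8 and -1.41 to -0.14 on the 7. The pooled correlations with T and NK cells above were not tested apart from this split. S100a9 was 0.13 to 4.70 on the 8 arrays and -0.88 to -0.37 on the 7. The sets were found in these data, and the share of all probes that separate them was not counted. Camp, Retnlg and Chil3 overlapped between the sets, at -4.64 to 0.01 against -5.26 to -3.48 for Camp, -4.45 to 0.44 against -7.08 to -3.23 for Retnlg and -2.79 to -1.04 against -4.36 to -2.73 for Chil3. Ngp overlapped narrowly, at -6.6805 to -2.48 on the 8 and -7.88 to -6.6796 on the 7. It was well above background only in Wsh 1, 2 and 6 and B6 1. Lcn2 was 5.97 to 6.83 on the 8 and 6.26 to 6.90 on the 7. In whole tumours, fewer cells of a type and less RNA per cell cannot be told apart, and the part of lymphoid tissue in these levels was not tested.

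**Figure D4:**
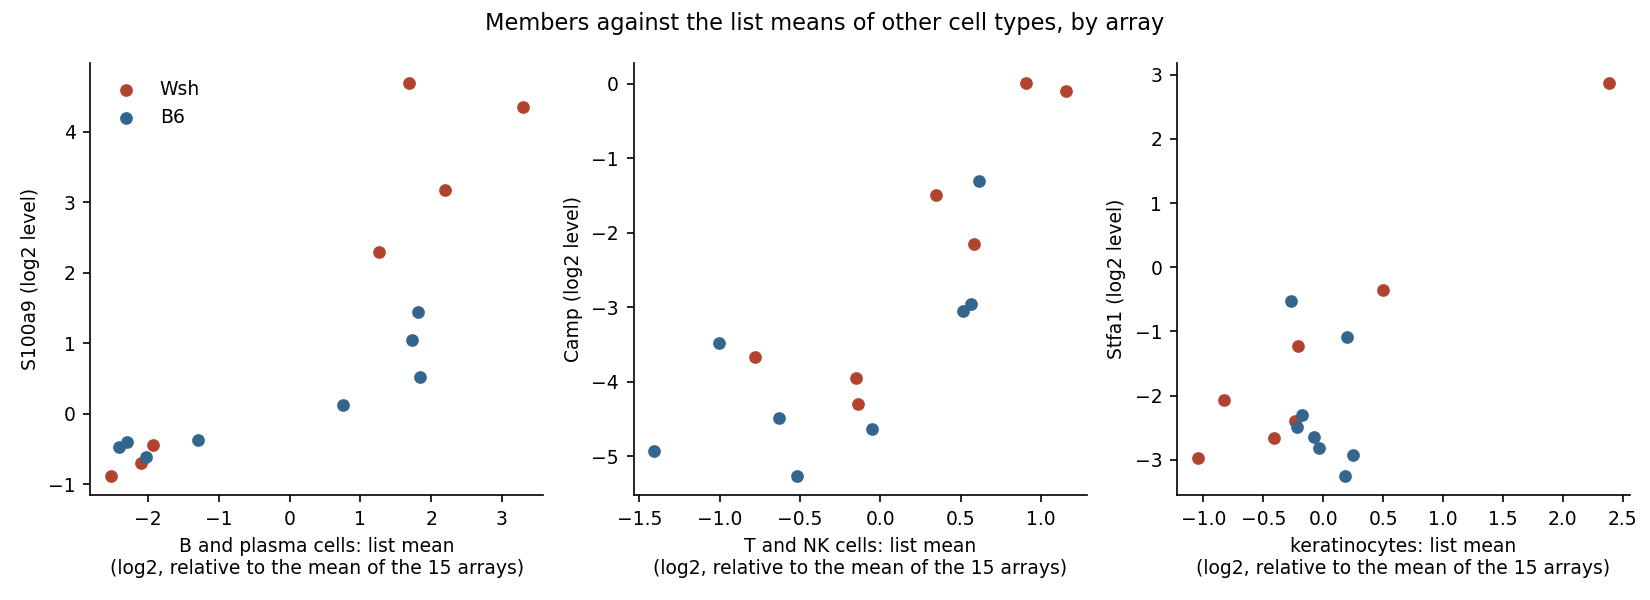
Log2 level of S100a9, Camp and Stfa1 (vertical axes) against the list mean of B and plasma cells, T and NK cells and keratinocytes (horizontal axes, log2 relative to the mean of the 15 arrays), with a point for each of the 7 Wsh (red) and 8 B6 (blue) tumours. S100a9 lies between -0.88 and -0.37 on the 7 arrays of low B and plasma cell mean, and the Wsh tumour with Stfa1 at 2.88 has the highest keratinocyte mean, 2.39.

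The genes whose levels followed each member most closely were taken over 15816 gene names, after group means were removed. Of these genes, only Clec2g was shared between members, by S100a9 and Ngp. For S100a9 they were Cd27, Clec2g and Cxcr5 (r = 0.90 each), of which Cd27 and Cxcr5 are lymphocyte receptors. Camp was followed by Ttpal (r = 0.94), the B cell coactivator Pou2af1 (0.93) and Gm41538 (0.92), Ngp by Clec2g (0.94), the B cell factor Pax5 (0.91) and Gimap4 (0.90), and Retnlg by the leukocyte surface genes Cd53 (0.91) and Cd38 (0.90) and by Rhoh (0.90). Chil3 was followed by Slc37a2 (0.97), Neurl3 (0.92) and Sh2d1a (0.92).

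S100a8 was nearest to Clec4d (r = 0.87), a myeloid C-type lectin, and then to Prss27 (0.83) and the water channel Aqp3 (0.81). Stfa1 was nearest to its family member Stfa3 (0.93), then to the cornified envelope gene Cnfn (0.87) and to Edem2 (0.87). Lcn2 was nearest to Igfbp5 (0.94), AU020206 (0.94) and Col9a2 (0.94). Csf3r was nearest to Snhg7 (0.98), Stx12 (0.96) and Bfar (0.96). Ly6g was nearest to Ly6a (0.99), 9030619P08Rik (0.96) and Grina (0.96), all of which lie, like Ly6g, on chromosome 15. The longest run of bases that a member probe shared with a probe of these neighbours was 10. These genes were picked for their r, which is a description. Removing group means leaves the split of arrays by B and plasma cell genes in place.

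The other genes of the neutrophil programme and of the members' families stood in 9 lists. With the members left out, no gene of them passed the test in either direction, against 24 gene names higher and 50 lower among 22364. Of these names, 10780 were above 0, with a median of -0.01. Of 17 tested granule and antimicrobial genes, 15 were above 0, with a median of 0.32. The oxidase subunit Cyba was 3.29 ± 0.37 in Wsh and 2.69 ± 0.49 in B6, a difference of 0.61 (SE 0.21, limma adjusted p = 0.293), and its partners Ncf1 and Cybb differed by 0.54 and 0.31 (limma adjusted p = 0.489 and 0.493). Haptoglobin, Hp, differed by 0.70 (SE 0.36).

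Of 21 tested surface receptors and markers, 20 were above 0, with a median of 0.42. The formyl peptide receptor Fpr1 was -4.09 ± 1.12 in Wsh and -5.42 ± 0.76 in B6, a difference of 1.33 (SE 0.45, limma adjusted p = 0.276), and its relative Fpr2 differed by 0.75 (SE 0.29). Clec4d differed by 1.16 (SE 0.48) and Mrgpra2b by 1.004 (SE 0.35). Several defining genes were too dim to test. Cxcr2, the chemokine receptor by which neutrophils enter tissue, was well above background on 3 of 7 Wsh and 1 of 8 B6 arrays, Mmp8 on 4 and 2, Cd177 on 1 and 3, Cxcr1 on 1 and 2, and Olfm4 on none.

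Of 11 tested chemoattractant and cytokine genes, C5ar1 among them, 10 were above 0, with a median of 0.65. Il1b was -0.62 ± 0.60 in Wsh and -1.90 ± 1.04 in B6, a difference of 1.28 (SE 0.42, limma adjusted p = 0.252). Cxcl1, a ligand of Cxcr2, differed by 0.86 (SE 0.35), Ccl3 by 0.82 (SE 0.26) and the complement receptor C5ar1 by 0.73 (SE 0.26), with limma adjusted p of 0.371, 0.230 and 0.284. Cxcl3, Il1a and Il17a were not well above background on any array. After group means were removed, the median r of these genes with S100a9 was near 0 (-0.004). It was 0.49 for granule genes, 0.33 for surface genes, 0.63 for T and NK genes and -0.08 for all genes. For B and plasma cell genes it was 0.82, but their mean split the arrays into 2 sets. Removing group means does not remove that split, so this value is not ranked with the others. The Ly6 family had 0.49 and the epithelial inflammation genes 0.42.

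Among 11 granulocyte transcription factors tested, 7 were above 0, with a median of 0.10. The difference was 0.52 for Irf8 (SE 0.33), 0.33 for Cebpd (SE 0.25), 0.23 for Ets1 (SE 0.19) and -0.17 for Cebpb (SE 0.18). Spi1, which encodes PU.1, was well above background on 3 of 7 Wsh and 2 of 8 B6 arrays. Beside Stfa1, the stefin genes Stfa3, BC100530 and Stfa2 differed by 1.65, 0.98 and 0.57 (SE 1.02, 0.73 and 0.34), and the more widely expressed Cstb by -0.14. Beside the calprotectin genes, 4 of 11 S100 genes were above 0, with a median of -0.12, and the widest difference was that of S100g, a calcium buffer of epithelium, at 1.93 (SE 0.77, limma adjusted p = 0.362). In the Ly6 family 3 of 10 genes were above 0, with a median of -0.12 and -0.50 for Ly6a (SE 0.32).

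Among epithelial inflammation and acute phase genes, 12 of 14 were above 0, with a median of 0.41 and 1.30 for Duox2 (SE 0.43, limma adjusted p = 0.254), an oxidase of epithelial surfaces. Of 6 chitinase-like and resistin-like genes tested, 4 were above 0, with a median of 0.29. Macrophage and monocyte genes, read as a check of another cell type, were above 0 in 14 of 16, with a median of 0.31, and of 6 eosinophil genes 1 was above 0. Other cell types stood above 0 as well: 9 of 11 T and NK genes (median 0.68), 7 of 7 B and plasma cell genes (0.31), 9 of 10 adipocyte genes (0.86) and 10 of 10 skeletal muscle genes (3.27). Of 10 luminal and basal epithelium genes 5 were above 0 (median -0.05), and of 5 keratinocyte genes 2. Their part in the neutrophil lists was not tested.

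**Figure D5:**
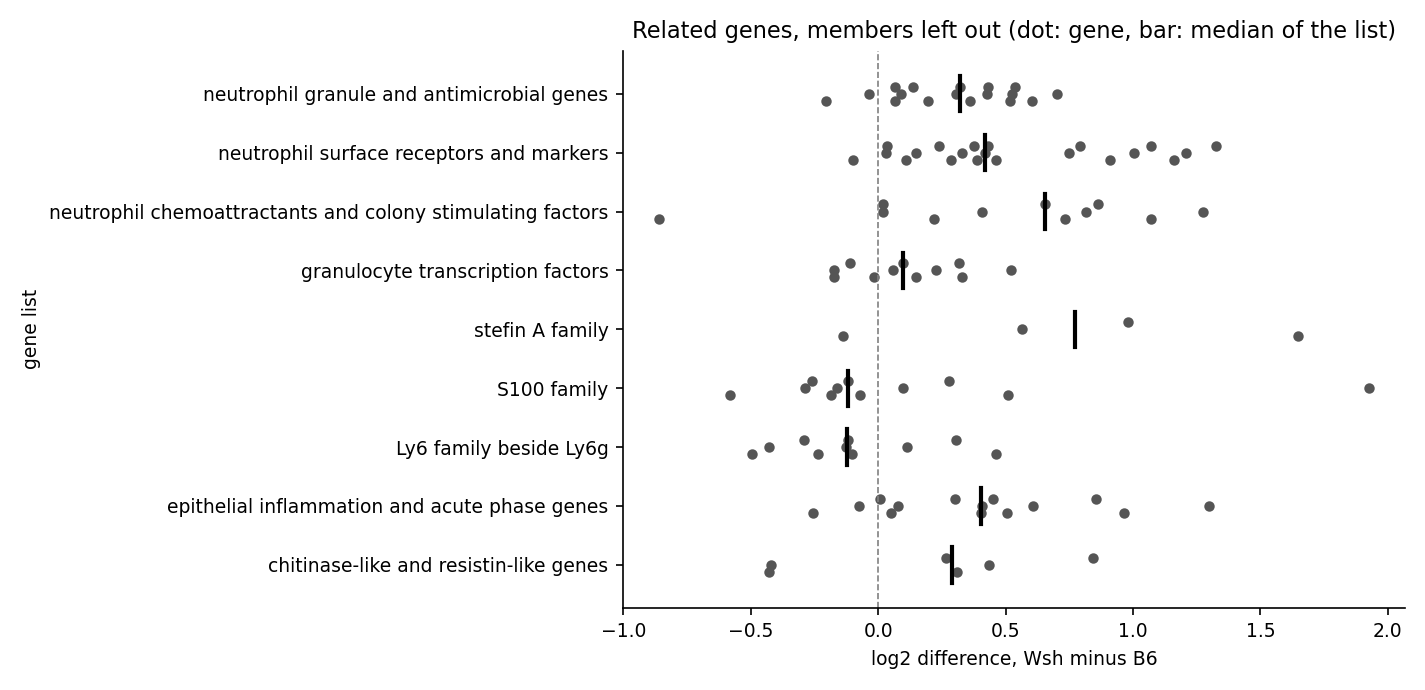
Log2 difference of Wsh minus B6 (horizontal axis) for each tested gene of 9 related lists (rows), with the members left out; dots are genes and bars are list medians. Medians are 0.32 for granule genes, 0.42 for surface receptors and markers and 0.65 for chemoattractants, and none of the genes passed the test.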

How the data were processed

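The authors hybridised Cy3-labelled RNA to 1-colour Agilent arrays and read them with Agilent Feature Extraction 10.7.3.1, per the file headers; the processed intensity in the deposited files is background-subtracted and not normalized between arrays. The authors also deposited log2 values, used here as an alternative; the submitters' processing notes name limma, and the background step, normalization and centring of that table remain unknown. Their column medians are 8.636 to 8.647. Here, log2 of the processed intensity minus each array's 75th percentile (3550 to 4582 in Wsh, 3328 to 6406 in B6) was averaged over the spots of a probe. Probes that cleared the background call on 7 or more of the 15 arrays were fitted with limma 3.58.1 in R 4.3.3 (Wsh minus B6, no covariates, two-sided, Benjamini-Hochberg over 34349 probes). The number of arrays limits the precision. Probe names were updated to RefSeq for 43738 probes by accession, symbol or synonym, and 12867 kept the file's name. On simulated data of this comparison, 70% of probes changed by 1 and 92% of those changed by 2 on the log2 scale were called. Of unchanged probes, 0.0176% were called. The changed probes were drawn at random from all tested ones, each with its own SD. S100a8, S100a9, Camp, Retnlg, Stfa1 and Chil3 varied more than most tested probes, so these rates cannot be read as theirs.

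Members and gene lists were chosen with earlier results of these data known. Named genes are all members, up to 4 genes of a list by the size of the moderated t statistic, and the 3 nearest genes of each member; the genes of a list that were too dim to test, and Gm1305, are named outside this rule and were chosen after their values were seen. A gene of a list was read through its tested probe of highest mean. Alternatives covered background correction, scaling, filters, array weights, slides, single arrays and pairing. Replicate numbers occur in both groups, but tumours of the same number correlated at -0.231 to 0.210 after group means were removed, so they do not pair the samples. Coordinates of probes are those of the files (mm9); no mm9 annotation was used here.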

Additional observations from a re-analysis of the deposited data

How the results depend on the processing

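No neutrophil probe was called under any of 30 alternatives, and the lowest adjusted p of a member was 0.105, for S100a9 without the 5 muscle arrays. The direction was kept in 278 of the 297 alternative values of member probes. The 19 that turned were all far from the threshold. For the first Lcn2 probe the difference was 0.16 on slide 2, 0.015 without the muscle arrays and 0.013 with the B and plasma cell list as a covariate, and from -0.089 to 0.071 when 1 array was left out. For the second it was 0.086 on slide 2, 0.013 without the muscle arrays, and from -0.179 to 0.071 when 1 array was left out. Csf3r was -0.0041 with median scaling, and Stfa1 was -0.22 on slide 2. Retnlg was -0.98 with array weights, -0.034 with the covariate, and from -0.26 (without Wsh 1) to 0.93 when 1 array was left out. The correlation of S100a8 and S100a9 was -0.38 within B6. The cause of these turns was not tested. Of all probes, 114 passed in the reported fit, 49 with no filter, 75 with 1 probe per gene name, 10 on slide 1, 3 on slide 2, 309 with array weights, 34 without the muscle arrays, and 47 to 131 when 1 array was left out. With the replicate number as a block, 28 probes and 0 members passed; the numbers pair nothing here. The alternatives on muscle and on B and plasma cells were chosen after the data were seen.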

Other observations

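The 8 tumours with high transcripts of B and plasma cells were 4 Wsh and 4 B6, and these 4 Wsh tumours, 1, 2, 6 and 7, are the ones already described as above every B6 tumour for both calprotectin genes. S100a9 was 2.29 to 4.70 in the 4 Wsh tumours and 0.13 to 1.44 in the 4 B6 tumours, and S100a8 was 1.73 to 4.57 in Wsh and 0.73 to 1.11 in B6. In the other 7 tumours S100a9 was -0.88 to -0.44 in 3 Wsh and -0.61 to -0.37 in 4 B6 tumours, and S100a8 was -0.59 to 0.49 in Wsh against 0.78 to 1.66 in B6. This split was noticed in the data and was not tested. The share of all probes whose Wsh and B6 tumours do not overlap within these subsets was not counted. With the B and plasma cell list mean as a covariate, also chosen afterwards, the difference was 1.27 for S100a9 (SE 0.42) and 1.22 for Camp (SE 0.40), with limma adjusted p of 0.242 and 0.237, and -0.03 for Retnlg (SE 0.63).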
